A study of Homo sapiens with 48 samples.

Results

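The genes described here repair damaged DNA or signal its presence to the cell cycle. They were chosen by symbol alone. A gene belongs to the set if its symbol begins with FANC and a letter from A to M, with one of several RAD stems, or with XRCC, MSH, MLH, BRCA or CHEK, or is ATM, ATR, BARD1, PALB2, BRIP1, MRE11 or NBN. The rule found 46 genes. Of these, 45 were among the 11145 genes of the ribosome-protected fragment (RPF) table, 46 among the 11947 genes of the total cytoplasmic RNA table, and 45 among the 10836 genes in both. RAD50 was listed in total RNA only. RAD54L2 matched the rule by its symbol and was placed in no repair pathway. The cells were SW480, a human CRC line with mutant APC, stably transduced with a DOX-inducible shRNA that was non-targeting (shCTRL) or directed at EIF2B1 (shEIF2B1, the eIF2Bα subunit) or EIF2B4 (shEIF2B4, the eIF2Bδ subunit). All cells were derived from 1 tumor line, each knockdown rested on 1 transduced line in the labels, and every line carried an inducible shRNA. Uninduced cells (-DOX) received DMSO and induced cells (+DOX) received 1 µg/ml DOX, for 5 days, and each lysate pooled a pair of dishes. The experiment was run in 4 separate weeks, which gave 12 groups of 4 libraries, 6 of RPFs and 6 of total RNA.

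Cells respond to broken or stalled DNA through the kinases ATM and ATR, which pass the signal to CHEK2 and CHEK1 and so hold the cell cycle. Double-strand breaks are recognised by the MRE11, RAD50 and NBN complex and are then either rejoined directly, with the XRCC5 and XRCC6 (Ku) heterodimer and XRCC4, or repaired from the sister chromatid by homologous recombination with BRCA1 and BRCA2. The Fanconi anemia proteins unhook crosslinks between DNA strands, and mismatch repair, which is lost in a known class of CRC, corrects replication errors through the MSH and MLH proteins. eIF2B is the exchange factor that reloads eIF2 with GTP for translation initiation, and its α and δ subunits belong to the part that senses phosphorylated eIF2α. Many repair genes are transcribed mainly in cycling cells.

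Values are regularized log2 values that the authors made with DESeq2, with RPFs and total RNA transformed apart. The files hold no counts, so the sequencing depth of a value cannot be known. Each RPF value counts fragments on the whole coding sequence (CDS), so it measures ribosome occupancy, not protein. A response is how much more a knockdown line changed from -DOX to +DOX than shCTRL did. It was estimated by limma across all genes of a table with the week as a block. A gene was called where its Benjamini-Hochberg adjusted p lay below 0.1. Log2 TE is the RPF value minus the total RNA value of the same lysate. Values below run in the order of weeks 1 to 4, and each group has n = 4. The targeted genes fell: EIF2B1 by a response of -0.53 (SE 0.13, limma adjusted p = 0.0109) in RPFs and -0.67 (SE 0.15, limma adjusted p = 0.0263) in total RNA after shEIF2B1, and EIF2B4 by -0.49 (SE 0.14, limma adjusted p = 0.0634) in total RNA after shEIF2B4. In RPFs the response of EIF2B4 to shEIF2B4 was -0.48 (SE 0.19, limma adjusted p = 0.236), which was not called. Of 12 markers of colon epithelium and CRC, 8 were listed in each table, and of 10 markers of blood, endothelial, stromal and glial cells 1 was. All shEIF2B4 columns lay lower, at a group mean of 7.0 in uninduced and 7.01 in induced RPFs against 7.12 to 7.15 in the other lines. In total RNA shEIF2B4 had 7.76 uninduced and 7.78 induced, against 7.8 in the other lines. This offset cancels in a response only so far as it is equal without and with DOX and over genes, which was not tested.

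A few libraries stood apart from the other 3 of their group, most plainly in how their values rose or fell with the GC content of the CDS. This slope, in log2 units per 10 percentage points of GC, was 0.383 in the week 1 RPF library of uninduced shEIF2B4 and -0.216, -0.18 and -0.341 in weeks 2 to 4. The week 4 RPF library of induced shCTRL had a slope of -0.208 against 0.254, 0.00703 and 0.152 in weeks 1 to 3. In total RNA the week 2 library of induced shEIF2B1 had 0.183 against -0.029, -0.0099 and -0.0548. RPF slopes also ran by week, at 0.0791 to 0.383 in week 1 and -0.354 to -0.0994 in week 4 over all groups. Both RPF libraries above thus stood apart from their group but had slopes of the same sign as the rest of their week. In week 3 uninduced shEIF2B4 (-0.18) was below 0, and the other RPF groups had 0.0352 to 0.278. Counts of members that moved with these 3 libraries are given with and without them.

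Repair genes are rich in A and T in their coding parts. A CDS was found for 39 of the 45 members in RPFs, in GENCODE v29 on GRCh38, and its median GC content was 43.9% against 52.5% over 10847 genes. At the third base of codons, where a change often leaves the amino acid as it is, median GC was 41.9% against 59.7%. The range was wide, from 35.7% in BRCA2 to 63.3% in XRCC3, and 22 members lay under 45%. Coding stretches of 5 members are shown because RPF changes, described next, ran with this composition. They are those of MRE11 and MSH6, called falls after shEIF2B1, of the 1 called rise (FANCF), and of the 2 members of highest coding GC (XRCC3 and RAD9A). Each is 90 bases of 1 exon in frame, chosen as the stretch whose GC is nearest that of the whole CDS. Capitals mark G or C at the third base of a codon. All coordinates are of GRCh38.
MRE11, codons 66 to 95, chr11:94485953-94486042, minus strand: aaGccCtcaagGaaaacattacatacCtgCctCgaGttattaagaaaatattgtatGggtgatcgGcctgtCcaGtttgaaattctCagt
MSH6, codons 106 to 135, chr2:47790982-47791071, plus strand: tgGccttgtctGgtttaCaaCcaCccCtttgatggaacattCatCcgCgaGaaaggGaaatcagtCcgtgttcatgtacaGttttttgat
FANCF, codons 135 to 164, chr11:22625319-22625408, minus strand: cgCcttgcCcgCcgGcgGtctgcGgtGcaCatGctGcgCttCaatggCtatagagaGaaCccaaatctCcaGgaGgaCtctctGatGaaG
XRCC3, codons 146 to 175, chr14:103703209-103703298, minus strand: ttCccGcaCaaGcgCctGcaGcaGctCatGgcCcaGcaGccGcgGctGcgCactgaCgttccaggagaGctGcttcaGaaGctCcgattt
RAD9A, codons 36 to 65, chr11:67392654-67392743, plus strand: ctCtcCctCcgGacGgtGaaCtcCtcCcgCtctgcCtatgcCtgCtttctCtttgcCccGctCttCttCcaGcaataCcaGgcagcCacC

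Of 30 codons, 12 ended in G or C in the MRE11 stretch and 13 in MSH6, against 22 in FANCF, 23 in XRCC3 and 24 in RAD9A. Over the whole CDS, third-base GC was 32.5% in MRE11, 41.0% in MSH6, 64.7% in FANCF, 76.9% in XRCC3 and 76.2% in RAD9A. The transcripts are those the authors' table lists, which for RAD51C holds a CDS of only 405 bases.

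Levels were compared between genes only after division by length, as the mean log2 value of uninduced shCTRL less the log2 of the CDS length in kb. ATM, BRIP1, FANCB, FANCD2, MSH3 and RAD54L had no matched CDS and have no place on this scale. Ku stood highest on it, with XRCC6 at 9.88 and XRCC5 at 9.38 in RPFs. RAD51C (8.90, over its short listed CDS), RAD51AP1 (8.12), FANCG (8.00) and CHEK1 (7.88) came next. Of the 39 members with a matched CDS, the lowest were the mismatch repair gene MLH3 (2.65), the Fanconi anemia translocase FANCM (3.11) and BRCA2 (3.45). Per kb of transcript, total RNA of BRCA2 stood at 6.36, that of FANCM at 5.74 and that of MLH3 at 5.84, each closer to XRCC6 (9.59) than it was in RPFs. These are levels, shrunken by the regularized log, and the order of genes within 1 unit of each other was not tested.

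After shEIF2B1, RPFs of repair and checkpoint genes fell more often than they rose. Of 45 members 17 fell and 1 rose, and 27 were not called. Among all 11145 genes 27.3% were called in either direction and 15.3% fell. The median response of the members was -0.30, with 37 of 45 below 0, against -0.01 over all genes. The falls included those of MRE11 (-1.0), MSH6 (-0.94), XRCC4 (-0.77) and RAD51AP1 (-0.73), and the rise was FANCF (0.48). By week, the median response of the members was -0.34, -0.27, -0.31 and -0.28. Without week 1, 7 members fell and none rose, without week 4, 9 fell and none rose, and without the week 4 library of induced shCTRL 12 fell and 1 rose, while 8.28%, 7.59% and 10.8% of all genes fell in these fits. With no term for the week no member was called, and 8 had an unadjusted p under 0.05, as had 7.78% of all genes. These are bulk cultures, in which fewer cycling cells and less of these mRNAs per cell cannot be told apart. Proliferation genes moved alongside: 11 of 21 fell in RPFs and none rose, with a median of -0.48, and their part in the members' falls was not tested.

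**Figure D1:**
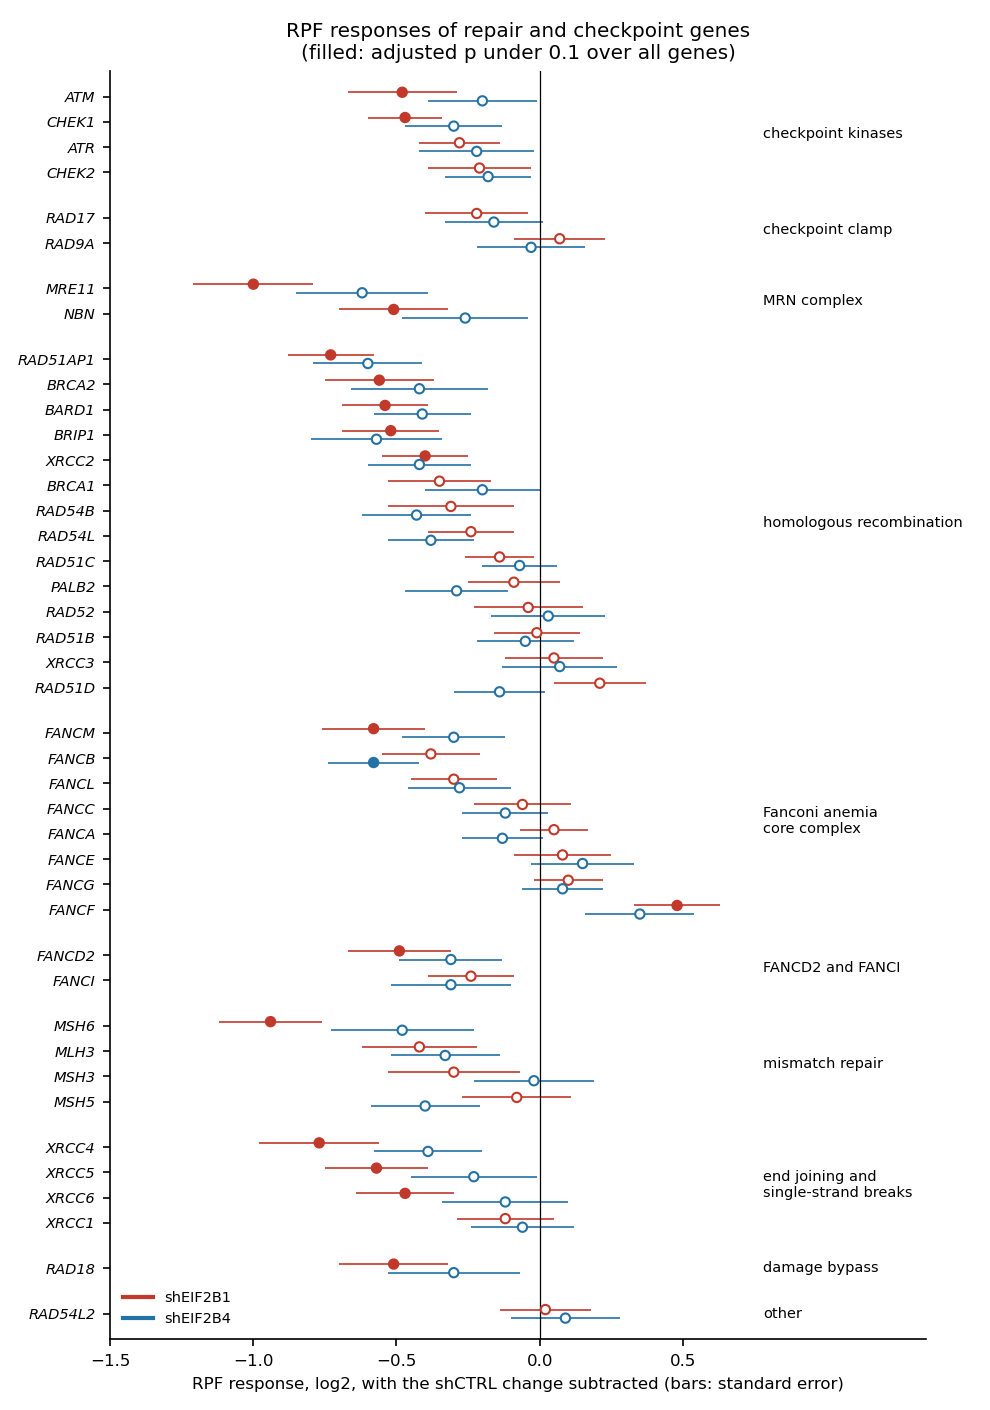
RPF responses (x axis, log2, change on DOX minus the shCTRL change) of 42 members, grouped by role, after shEIF2B1 (red) and shEIF2B4 (blue). Points are limma estimates, bars are standard errors, and filled points passed an adjusted p under 0.1 over all genes. For shEIF2B1, 16 filled points lie left of 0 and FANCF lies right of it, while for shEIF2B4 only FANCB is filled.

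Among the checkpoint kinases, ATM and CHEK1 fell in RPFs after shEIF2B1, and ATR and CHEK2 were not called. Of all genes 15.3% fell. ATM (ENSG00000149311.20, chr11:108222484-108369102) is the kinase of double-strand breaks and was close to the lower end of the table. ATM had log2 RPF values of 2.95, 3.07, 3.04 and 2.86 in uninduced shCTRL and of 3.09, 3.43, 2.98 and 3.07 in induced shCTRL. In shEIF2B1, ATM stood at 3.26, 4.16, 3.11 and 3.76 before induction and at 3.05, 3.46, 3.0 and 3.51 after it. In shEIF2B4, ATM stood at 2.98, 3.18, 3.04 and 3.55 before induction and at 2.98, 3.03, 3.09 and 3.47 after it. Each shEIF2B1 value was lower with DOX in its own week, the groups overlapped, and the highest was the uninduced library of week 2. The ATM response was -0.48 (SE 0.19, limma adjusted p = 0.0895), with an adjusted p of 0.0404 to 0.651 over the alternatives. The upper ends of these ranges come from the fit with no term for the week or from the induced libraries alone. The alternatives also include the change within the knockdown line without the shCTRL correction, which is not the response. The lower ends, here and below, can come from that fit and do not measure the strength of the response. CHEK1 (ENSG00000149554.14, chr11:125625136-125676255) is the effector kinase of ATR that blocks entry into mitosis. For CHEK1, uninduced shCTRL gave 7.74, 8.30, 7.82 and 8.44 and induced shCTRL gave 7.65, 7.94, 7.79 and 8.37. Values of CHEK1 in shEIF2B1 were 8.25, 8.92, 8.29 and 8.77 uninduced and 7.56, 8.07, 7.80 and 8.36 induced. With shEIF2B4, CHEK1 had 7.66, 8.39, 8.53 and 8.58 uninduced and 7.40, 7.91, 7.86 and 8.26 induced. All 3 lines were lower with DOX in every week, on average by the most in shEIF2B1. Its response was -0.47 (SE 0.13, limma adjusted p = 0.0179), ranging in adjusted p from 4.96e-05 to 0.968.

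ATR (ENSG00000175054.16, chr3:142449235-142578826) senses stalled replication forks. ATR had log2 RPF values of 8.54, 9.01, 8.45 and 9.03 in uninduced shCTRL and of 8.57, 8.81, 8.73 and 9.22 in induced shCTRL. In shEIF2B1, ATR stood at 8.87, 9.65, 8.89 and 9.42 before induction and at 8.62, 9.20, 8.84 and 9.37 after it. In shEIF2B4, ATR stood at 8.27, 9.30, 9.08 and 9.23 before induction and at 8.10, 8.98, 8.81 and 9.43 after it. Weeks 2 and 4 lay above weeks 1 and 3 in every group, and this spread was wider than the mean change on DOX. The response of ATR to shEIF2B1 was -0.28 (SE 0.14, limma adjusted p = 0.168). CHEK2 (ENSG00000183765.23, chr22:28687743-28742422), the effector kinase of ATM, has pseudogene copies whose reads cannot be told apart from its own here. For CHEK2, uninduced shCTRL gave 6.29, 6.51, 6.57 and 6.60 and induced shCTRL gave 6.33, 6.56, 6.55 and 6.70. Values of CHEK2 in shEIF2B1 were 6.50, 7.05, 6.54 and 6.80 uninduced and 6.73, 6.61, 6.61 and 6.28 induced. With shEIF2B4, CHEK2 had 6.24, 6.50, 6.44 and 6.23 uninduced and 6.19, 6.29, 6.13 and 6.24 induced. Its groups overlapped in every line, and the response was -0.21 (SE 0.18, limma adjusted p = 0.43). The checkpoint clamp and its loader were not called either. RAD17 (ENSG00000152942.19, chr5:69369293-69414801) loads the clamp and RAD9A (ENSG00000172613.8, chr11:67317871-67398410) is part of it.

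RAD17 had log2 RPF values of 4.86, 5.22, 4.98 and 5.24 in uninduced shCTRL and of 5.02, 5.37, 5.38 and 5.64 in induced shCTRL. In shEIF2B1, RAD17 stood at 4.98, 5.77, 5.09 and 5.57 before induction and at 5.20, 5.69, 4.90 and 5.86 after it. In shEIF2B4, RAD17 stood at 4.97, 5.27, 5.03 and 5.48 before induction and at 4.89, 5.75, 5.16 and 5.40 after it. RAD17 was higher with DOX in every week of shCTRL and in 2 of 4 weeks of shEIF2B1, giving a response of -0.22 (SE 0.18, limma adjusted p = 0.403). For RAD9A, uninduced shCTRL gave 6.26, 5.83, 6.42 and 5.79 and induced shCTRL gave 6.34, 5.68, 6.03 and 5.84. Values of RAD9A in shEIF2B1 were 5.89, 5.83, 6.10 and 5.76 uninduced and 6.15, 5.81, 5.84 and 5.63 induced. With shEIF2B4, RAD9A had 6.49, 5.72, 5.81 and 5.74 uninduced and 6.28, 5.80, 5.60 and 5.55 induced. RAD9A, with a coding GC of 61.4%, had a response of 0.07 (SE 0.16, limma adjusted p = 0.802), and its highest value in shEIF2B4 was the uninduced library of week 1.

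**Figure D2:**
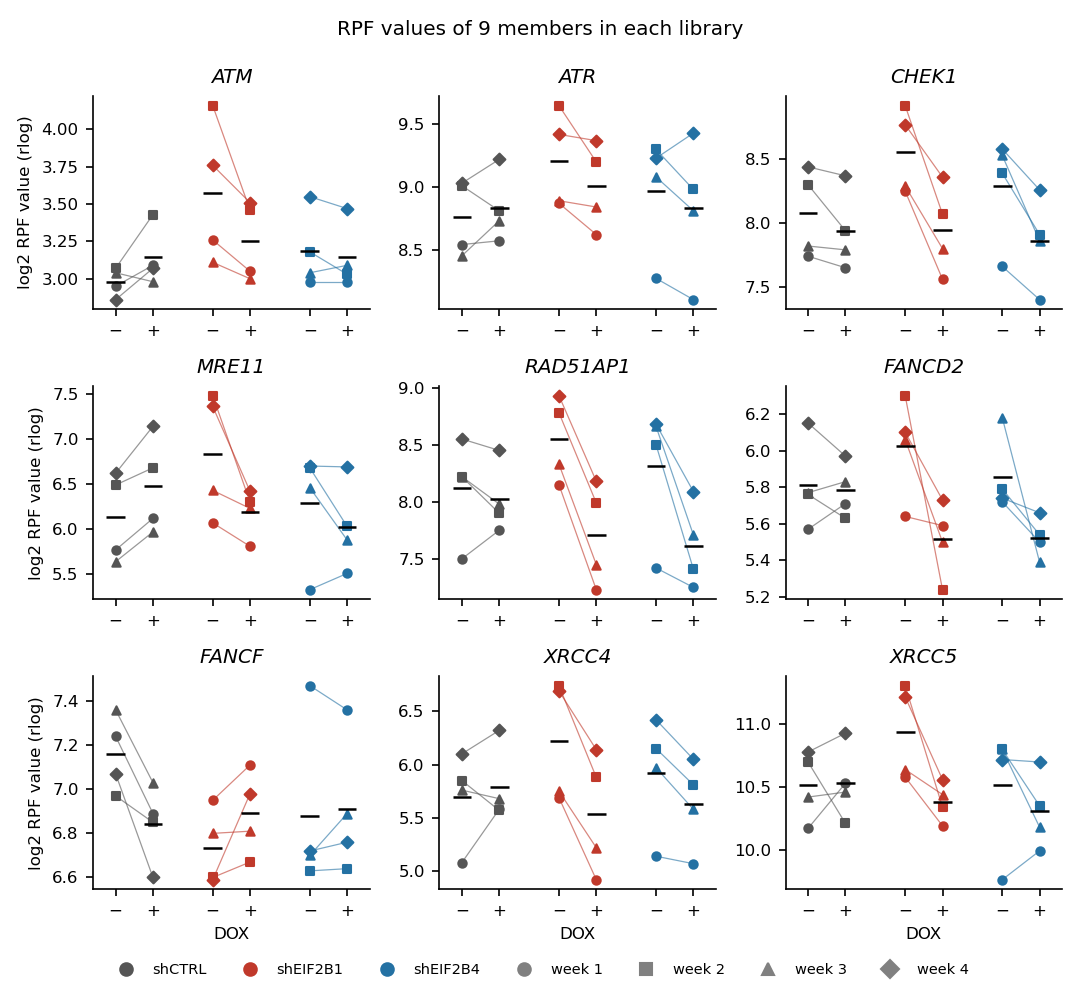
Log2 RPF value (y axis) of 9 members in each library without (−) and with (+) DOX, for shCTRL (grey), shEIF2B1 (red) and shEIF2B4 (blue). Symbols mark weeks 1 to 4, thin lines join libraries of 1 week, black bars are means of 4, and y axes differ. MRE11, RAD51AP1, XRCC4 and XRCC5 went down with DOX in all 4 weeks of shEIF2B1, from mean uninduced levels above those of shCTRL, and FANCF went up.

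After shEIF2B1 15.3% of all genes fell in RPFs, and of those with a coding GC under 45%, 41.5% fell. Both RPF-listed members of the complex that first binds double-strand breaks were among the falls. MRE11 (ENSG00000020922.13, chr11:94415578-94493908) is its nuclease. MRE11 had log2 RPF values of 5.77, 6.49, 5.64 and 6.62 in uninduced shCTRL and of 6.12, 6.68, 5.97 and 7.14 in induced shCTRL. In shEIF2B1, MRE11 stood at 6.07, 7.48, 6.43 and 7.36 before induction and at 5.81, 6.30, 6.23 and 6.42 after it. In shEIF2B4, MRE11 stood at 5.33, 6.68, 6.46 and 6.70 before induction and at 5.51, 6.03, 5.88 and 6.69 after it. With DOX, MRE11 was higher in 4 of 4 weeks of shCTRL and lower in 4 of 4 weeks of shEIF2B1, so the response combines a rise in the one and a fall in the other. It was -1.0 (SE 0.21, limma adjusted p = 0.00401), with an adjusted p of 0.000605 to 0.621 over the alternatives. NBN (ENSG00000104320.14, chr8:89933336-90003228) couples the complex to ATM. For NBN, uninduced shCTRL gave 6.01, 6.80, 6.38 and 6.94 and induced shCTRL gave 6.48, 6.50, 6.35 and 7.29. Values of NBN in shEIF2B1 were 6.84, 7.82, 6.66 and 7.78 uninduced and 6.41, 7.07, 6.52 and 7.54 induced. With shEIF2B4, NBN had 6.06, 7.33, 7.17 and 7.61 uninduced and 6.36, 7.06, 6.69 and 7.53 induced. Uninduced shEIF2B1 was above uninduced shCTRL in every week, and the response of NBN was -0.51 (SE 0.19, limma adjusted p = 0.0701), from 0.00969 to 0.782 in adjusted p. RAD50 (ENSG00000113522.14, chr5:132556019-132646344), the third subunit, had total RNA means of 9.14 ± 0.16 and 9.19 ± 0.14 (SD, n = 4) in shCTRL without and with DOX and of 9.31 ± 0.055 and 9.16 ± 0.18 in shEIF2B1. Its total RNA response was -0.21 (SE 0.12, limma adjusted p = 0.453).

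In homologous recombination 5 of 15 members fell after shEIF2B1 and none rose, with a median response of -0.28. The 5 were RAD51AP1, BRCA2, BARD1, BRIP1 and XRCC2. Of all genes 15.3% fell, and of those with a coding GC under 45%, 41.5% fell. RAD51AP1 (ENSG00000111247.15, chr12:4538798-4560048) helps the broken strand pair with its template. RAD51AP1 had log2 RPF values of 7.50, 8.22, 8.22 and 8.55 in uninduced shCTRL and of 7.75, 7.90, 7.98 and 8.45 in induced shCTRL. In shEIF2B1, RAD51AP1 stood at 8.15, 8.78, 8.33 and 8.93 before induction and at 7.23, 7.99, 7.45 and 8.18 after it. In shEIF2B4, RAD51AP1 stood at 7.42, 8.50, 8.66 and 8.68 before induction and at 7.25, 7.41, 7.71 and 8.09 after it. All 4 shEIF2B1 weeks and all 4 shEIF2B4 weeks were lower with DOX. Its response to shEIF2B1 was -0.73 (SE 0.15, limma adjusted p = 0.00419), 3.75e-07 to 0.621 over the alternatives. BARD1 (ENSG00000138376.11, chr2:214725646-214809711) is the partner that stabilises BRCA1. For BARD1, uninduced shCTRL gave 5.64, 5.78, 5.92 and 6.21 and induced shCTRL gave 5.69, 5.81, 5.83 and 6.14. Values of BARD1 in shEIF2B1 were 5.87, 6.52, 6.0 and 6.44 uninduced and 5.44, 5.72, 5.55 and 5.85 induced. With shEIF2B4, BARD1 had 5.41, 6.07, 6.05 and 6.09 uninduced and 5.0, 5.73, 5.38 and 5.77 induced. In shEIF2B1 every uninduced BARD1 value was above every induced one, narrowly, and the response was -0.54 (SE 0.15, limma adjusted p = 0.0194).

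The strand-exchange mediator BRCA2 had a response of -0.56 (SE 0.19, limma adjusted p = 0.0436), the helicase BRIP1 of -0.52 (SE 0.17, limma adjusted p = 0.034) and the recombination factor XRCC2 of -0.40 (SE 0.15, limma adjusted p = 0.0779). Means of BRCA2 were 6.81 ± 0.4 and 6.81 ± 0.36 (SD, n = 4) in shCTRL without and with DOX, and 7.46 ± 0.57 and 6.89 ± 0.48 in shEIF2B1. BRCA1 (-0.35, adjusted p = 0.177), RAD54B (-0.31, adjusted p = 0.345) and RAD54L (-0.24, adjusted p = 0.271) had negative responses that were not called. RAD51C, PALB2, RAD52, RAD51B, XRCC3 and RAD51D ran from -0.14 in RAD51C to 0.21 in RAD51D, none of them called. Responses in this pathway spanned -0.73 to 0.21.

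RAD51D (ENSG00000185379.21, chr17:35092208-35121522), a recombination factor, is named for its total RNA. RAD51D had log2 RPF values of 5.66, 5.71, 5.79 and 5.71 in uninduced shCTRL and of 6.03, 5.76, 5.76 and 5.66 in induced shCTRL. In shEIF2B1, RAD51D stood at 5.81, 5.19, 5.73 and 5.51 before induction and at 5.98, 5.59, 5.94 and 5.88 after it. In shEIF2B4, RAD51D stood at 5.51, 5.48, 5.52 and 5.71 before induction and at 5.33, 5.43, 5.68 and 5.57 after it. The RPF values of shEIF2B1 were higher with DOX in every week, by the most in week 2, and the RPF response was 0.21 (SE 0.16, limma adjusted p = 0.38).

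The Fanconi anemia core complex did not move as one. Of its 8 members FANCM fell and FANCF rose after shEIF2B1, at 27.3% of all genes called, with a median response of -0.01. FANCF (ENSG00000183161.6, chr11:22622890-22625841) is an adaptor that holds the complex together. FANCF had log2 RPF values of 7.24, 6.97, 7.36 and 7.07 in uninduced shCTRL and of 6.89, 6.85, 7.03 and 6.60 in induced shCTRL. In shEIF2B1, FANCF stood at 6.95, 6.60, 6.80 and 6.59 before induction and at 7.11, 6.67, 6.81 and 6.98 after it. In shEIF2B4, FANCF stood at 7.47, 6.63, 6.70 and 6.72 before induction and at 7.36, 6.64, 6.89 and 6.76 after it. In shCTRL every week was lower with DOX and in shEIF2B1 every week was higher, in week 3 by very little. The response was 0.48 (SE 0.15, limma adjusted p = 0.0307), with an adjusted p of 0.0197 to 0.862 over the alternatives. FANCM (ENSG00000187790.11, chr14:45135940-45200890) is the translocase that brings the complex to DNA. For FANCM, uninduced shCTRL gave 5.63, 5.50, 5.57 and 6.16 and induced shCTRL gave 5.78, 5.56, 5.67 and 6.03. Values of FANCM in shEIF2B1 were 6.14, 6.41, 5.64 and 6.26 uninduced and 5.35, 5.64, 5.47 and 5.86 induced. With shEIF2B4, FANCM had 5.61, 6.09, 5.76 and 5.92 uninduced and 5.55, 5.46, 5.40 and 5.94 induced. FANCM was lower with DOX in 4 of 4 shEIF2B1 weeks, and its response was -0.58 (SE 0.18, limma adjusted p = 0.034), ranging from 0.00144 to 0.621.

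Responses of the other core members to shEIF2B1 were -0.38 (adjusted p = 0.128) for FANCB, -0.30 (adjusted p = 0.161) for the ubiquitin ligase FANCL, -0.06 (adjusted p = 0.837) for FANCC and 0.08 (adjusted p = 0.755) for FANCE. FANCA and FANCG were named for their total RNA. FANCA (ENSG00000187741.15, chr16:89737549-89816657) and FANCG (ENSG00000221829.10, chr9:35073835-35080016) bind each other within the complex. For FANCA, uninduced shCTRL gave 8.41, 8.13, 8.38 and 8.16 and induced shCTRL gave 8.30, 7.97, 8.43 and 8.09. Values of FANCA in shEIF2B1 were 8.10, 8.00, 8.21 and 7.92 uninduced and 8.06, 8.09, 8.20 and 7.78 induced. With shEIF2B4, FANCA had 8.33, 7.92, 8.09 and 7.76 uninduced and 8.02, 7.54, 7.86 and 7.89 induced. Its RPF response to shEIF2B1 was 0.05 (SE 0.12, limma adjusted p = 0.818). FANCG had log2 RPF values of 9.10, 8.71, 9.07 and 8.71 in uninduced shCTRL and of 8.96, 8.14, 8.69 and 8.44 in induced shCTRL. In shEIF2B1, FANCG stood at 8.90, 8.43, 8.77 and 8.32 before induction and at 8.81, 8.07, 8.47 and 8.11 after it. In shEIF2B4, FANCG stood at 8.97, 8.41, 8.63 and 8.30 before induction and at 8.74, 8.10, 8.35 and 8.10 after it. FANCG was lower with DOX in every week of all 3 lines, so its response of 0.10 (SE 0.12, limma adjusted p = 0.606) is small although each line moved.

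The core complex marks FANCD2 and FANCI with ubiquitin at crosslinks. FANCD2 (ENSG00000144554.13, chr3:10026414-10101930) fell after shEIF2B1 and FANCI (ENSG00000140525.19, chr15:89243949-89317261) was not called. FANCD2 had log2 RPF values of 5.57, 5.76, 5.77 and 6.15 in uninduced shCTRL and of 5.71, 5.63, 5.83 and 5.97 in induced shCTRL. In shEIF2B1, FANCD2 stood at 5.64, 6.30, 6.06 and 6.10 before induction and at 5.59, 5.24, 5.50 and 5.73 after it. In shEIF2B4, FANCD2 stood at 5.72, 5.79, 6.18 and 5.74 before induction and at 5.50, 5.54, 5.39 and 5.66 after it. Induced FANCD2 was lower in every week of both knockdown lines, and in shEIF2B4 every uninduced value was above every induced one. The response to shEIF2B1 was -0.49 (SE 0.18, limma adjusted p = 0.0639), 0.00395 to 0.621 over the alternatives. For FANCI, uninduced shCTRL gave 8.43, 8.87, 8.12 and 8.96 and induced shCTRL gave 8.34, 8.61, 8.49 and 8.99. Values of FANCI in shEIF2B1 were 8.70, 9.22, 8.68 and 9.08 uninduced and 8.23, 8.96, 8.56 and 9.01 induced. With shEIF2B4, FANCI had 8.21, 8.79, 8.93 and 8.98 uninduced and 7.69, 8.55, 8.38 and 9.07 induced. FANCI was lower with DOX in 4 of 4 shEIF2B1 weeks, by less than the spread between weeks, and its response was -0.24 (SE 0.15, limma adjusted p = 0.258).

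In mismatch repair 2 of 6 members fell after shEIF2B1, among them MSH6, and none rose, with a median of -0.38. Of all genes 15.3% fell, and of those with a coding GC under 45%, 41.5% fell. MSH6 (ENSG00000116062.17, chr2:47695530-47810101) is part of the heterodimer that finds mismatched bases. MSH6 had log2 RPF values of 7.55, 8.25, 8.00 and 8.46 in uninduced shCTRL and of 8.09, 8.11, 7.85 and 8.57 in induced shCTRL. In shEIF2B1, MSH6 stood at 8.02, 8.89, 8.21 and 8.92 before induction and at 7.36, 7.85, 7.70 and 7.73 after it. In shEIF2B4, MSH6 stood at 7.16, 8.26, 8.51 and 8.17 before induction and at 7.28, 7.59, 7.45 and 8.23 after it. In shEIF2B1 every uninduced MSH6 value was above every induced one, and the uninduced values also exceeded those of shCTRL in every week. The response was -0.94 (SE 0.18, limma adjusted p = 0.00189), and the adjusted p ran from 1.74e-06 to 0.587. The low week 1 value of uninduced shEIF2B4 comes from the library that stood apart. MLH3, a MutL subunit, had a response of -0.42 (adjusted p = 0.133), MSH3, which recognises loops of unpaired bases, -0.30 (adjusted p = 0.373), and MSH5, known for its part in meiosis, -0.08 (adjusted p = 0.786), none of them called.

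Of the 4 members named XRCC that join ends or mend single-strand breaks 3 fell after shEIF2B1, while 15.3% of all genes fell. XRCC4 (ENSG00000152422.16, chr5:83077498-83353787) is the scaffold of the ligase of end joining. XRCC4 had log2 RPF values of 5.08, 5.85, 5.76 and 6.10 in uninduced shCTRL and of 5.58, 5.57, 5.68 and 6.32 in induced shCTRL. In shEIF2B1, XRCC4 stood at 5.69, 6.74, 5.75 and 6.69 before induction and at 4.92, 5.88, 5.22 and 6.14 after it. In shEIF2B4, XRCC4 stood at 5.14, 6.15, 5.97 and 6.42 before induction and at 5.07, 5.81, 5.58 and 6.05 after it. XRCC4 was lower with DOX in every week of both knockdown lines, and the response to shEIF2B1 was -0.77 (SE 0.21, limma adjusted p = 0.0184), 6.31e-05 to 0.621 over the alternatives. XRCC5 (ENSG00000079246.16, chr2:216107464-216206303) is the large Ku subunit. For XRCC5, uninduced shCTRL gave 10.17, 10.70, 10.42 and 10.78 and induced shCTRL gave 10.53, 10.21, 10.46 and 10.93. Values of XRCC5 in shEIF2B1 were 10.58, 11.31, 10.64 and 11.22 uninduced and 10.19, 10.34, 10.44 and 10.56 induced. With shEIF2B4, XRCC5 had 9.76, 10.80, 10.80 and 10.72 uninduced and 9.99, 10.35, 10.18 and 10.70 induced. Uninduced XRCC5 lay above induced XRCC5 without overlap in shEIF2B1, and the response was -0.57 (SE 0.18, limma adjusted p = 0.0338). XRCC6, the other Ku subunit, had -0.47 (SE 0.17, limma adjusted p = 0.0565), with means of 10.99 ± 0.2 and 10.45 ± 0.1 (SD, n = 4). XRCC1, the scaffold of single-strand break repair, had a response of -0.12 (adjusted p = 0.64).

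RAD18 (ENSG00000070950.10, chr3:8775402-8963773) is the ubiquitin ligase that starts synthesis past a damaged base. RAD18 had log2 RPF values of 5.22, 5.76, 5.17 and 5.90 in uninduced shCTRL and of 5.18, 4.96, 5.15 and 5.74 in induced shCTRL. In shEIF2B1, RAD18 stood at 5.73, 6.22, 5.46 and 6.23 before induction and at 5.19, 5.20, 4.78 and 5.40 after it. In shEIF2B4, RAD18 stood at 4.85, 5.82, 5.84 and 6.23 before induction and at 4.85, 4.96, 5.02 and 5.68 after it. All shCTRL weeks and all shEIF2B1 weeks were lower with DOX, and in shEIF2B1 the groups did not overlap. Its RPF response was -0.51 (SE 0.19, limma adjusted p = 0.0606), from 1.67e-05 to 0.682. RAD54L2, outside these roles, had 0.02 (adjusted p = 0.955).

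After shEIF2B4, 1 of 45 members was called in RPFs, FANCB, and 2.75% of all genes were. FANCB is named here after its values were seen. Its log2 RPF values in shEIF2B4 were 5.11, 5.41, 5.10 and 5.52 before induction and 4.54, 4.69, 4.56 and 5.34 after it, against 4.88, 5.03, 4.56 and 5.48 and 4.75, 5.14, 4.81 and 5.54 in shCTRL. All 4 weeks were lower, with groups that overlapped, and the response was -0.58 (SE 0.16, limma adjusted p = 0.084), 0.0174 to 0.984 in adjusted p over the alternatives. The median response of the 45 was -0.26, with 39 below 0, against -0.02 over all genes, and by week it was -0.20, -0.12, -0.45 and -0.21. MRE11 had -0.62 (adjusted p = 0.204), MSH6 -0.48 (adjusted p = 0.358) and RAD51AP1 -0.60 (adjusted p = 0.144). The count turned on 1 library. Without the week 1 library of uninduced shEIF2B4, 12 members fell and 1 rose, while 10% of all genes fell. The falls included RAD51AP1, MRE11, BRIP1, BRCA2, FANCB, MSH6, XRCC2, BARD1, FANCL, XRCC4 and RAD18, and the rise was FANCF. In that fit MSH6 changed by -0.66 (SE 0.21, limma adjusted p = 0.0501), MRE11 by -0.80 (SE 0.2, limma adjusted p = 0.0168) and RAD51AP1 by -0.75 (SE 0.16, limma adjusted p = 0.00718). Without week 1 altogether 7 fell, at 8.17% of all genes, and without week 2, 3 or 4, or without the week 4 library of induced shCTRL, none was called, at 0.691%, 0.592%, 0.386% and 1.2% of all genes.

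A direct contrast of the responses to the knockdowns called none of the members by limma, in RPFs or in total RNA, at 0.00897% and 0.1% of all genes. At an unadjusted p under 0.05 there were 1 of 45 members in RPFs and 7 of 46 in total RNA, against 6.4% and 12.8% of all genes. MRE11 differed by -0.38 (SE 0.24, limma adjusted p = 0.75) in RPFs, shEIF2B1 minus shEIF2B4, and XRCC6 by -0.35 (SE 0.2, limma adjusted p = 0.746). The members' responses to shEIF2B1 and shEIF2B4 share the shCTRL libraries. A call after one knockdown and none after the other is thus not shown to be a difference, and the errors also do not show that the responses are equal.

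In total RNA few members changed. After shEIF2B1 RAD51D rose and RAD18 fell among 46 members, at 3.47% of all genes called, and the median response was -0.15 with 38 below 0. After shEIF2B4 FANCA and FANCG fell, at 5.4% of all genes, with a median of -0.05. RAD51D total RNA in shEIF2B1 was 6.74, 6.76, 6.61 and 6.54 before and 6.97, 7.05, 7.04 and 6.87 after induction, and in shCTRL it was 6.76, 6.88, 6.87 and 6.90 and 6.59, 6.57, 6.76 and 6.91. All 4 induced shEIF2B1 values exceeded all 4 uninduced ones, and the response was 0.46 (SE 0.12, limma adjusted p = 0.0664). RAD18 total RNA in shEIF2B1 was 7.45, 7.75, 7.68 and 7.47 and 7.22, 7.01, 7.31 and 7.17, without overlap, against 7.39, 7.39, 7.75 and 7.39 and 7.32, 7.45, 7.74 and 7.53 in shCTRL. It changed by -0.45 (SE 0.12, limma adjusted p = 0.0716) after shEIF2B1 and by -0.40 (SE 0.14, limma adjusted p = 0.145) after shEIF2B4.

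FANCA total RNA in shEIF2B4 was 7.18, 7.33, 7.40 and 7.40 uninduced and 7.21, 6.84, 6.84 and 7.05 induced, with shCTRL at 7.20, 7.32, 7.09 and 7.26 and 7.42, 7.16, 7.42 and 7.39. FANCG total RNA in shEIF2B4 was 8.05, 8.13, 8.20 and 7.97 and 7.92, 7.84, 7.68 and 7.70, with shCTRL at 7.99, 7.99, 7.90 and 7.92 and 8.00, 7.97, 8.12 and 8.03. FANCG separated without overlap and FANCA by all but its week 1. The responses were -0.47 (SE 0.13, limma adjusted p = 0.0556) for FANCA and -0.38 (SE 0.1, limma adjusted p = 0.0503) for FANCG. For genes that fell in RPFs, the total RNA responses to shEIF2B1 were -0.42 (adjusted p = 0.106) for MSH6, -0.24 (adjusted p = 0.456) for MRE11 and -0.27 (adjusted p = 0.367) for XRCC4, none called. Total RNA of MSH6 in shEIF2B1 was 9.04, 9.32, 9.07 and 9.30 before and 8.85, 8.69, 8.86 and 8.75 after induction, and the week 2 value after induction is from the library that stood apart. Without that library, RAD18 (limma adjusted p = 0.0845) and RAD51D (limma adjusted p = 0.0733) were again called in total RNA. XRCC6 also fell (limma adjusted p = 0.0917). These calls lay close to the threshold, and the share of all genes called in that fit is not given here. Without week 1, 3 or 4 no member was called in total RNA after shEIF2B1, at 0.929%, 1.74% and 0.929% of all genes, and without week 2 or 4 none was called after shEIF2B4, at 2.03% and 1.82%.

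RPF responses to shEIF2B1 lay below total RNA responses in most members. Log2 TE takes this difference between values that were transformed apart. After shEIF2B1, 3 of 45 members fell in TE, among them MRE11 and MSH6, and FANCF rose, at 7.1% of all genes, with a median of -0.18 and 35 below 0. Of members with a coding GC under 45%, 3 of 22 fell, with a median of -0.24. Of all 2602 genes under 45%, 12.6% fell, with a median of -0.28. MRE11 TE values in shEIF2B1 were -2.59, -1.36, -2.37 and -1.45 before and -2.80, -1.98, -2.69 and -2.26 after induction, and in shCTRL -2.94, -2.32, -3.01 and -2.08 and -2.74, -2.08, -2.77 and -1.67. The TE responses were -0.76 (SE 0.18, limma adjusted p = 0.0366) for MRE11, -0.52 (SE 0.15, limma adjusted p = 0.0585) for MSH6 and 0.57 (SE 0.16, limma adjusted p = 0.0573) for FANCF, each in the same direction in 4 of 4 weeks. Over the alternatives the adjusted p ran from 0.0232 to 0.942 for MRE11, 0.0167 to 0.906 for MSH6 and 0.0452 to 0.906 for FANCF. Without the week 2 library of induced shEIF2B1, 7 members fell in TE and 1 rose, at 15.3% of all genes called, and without the week 4 library of induced shCTRL 2 fell and none rose, at 2.88%. Without week 1, 3 or 4 altogether none was called, at 0%, 0.397% and 0.185% of all genes. After shEIF2B4 none of the 45 was called in TE by limma, at 0.0923% of all genes, and 5 had an unadjusted p under 0.05, as had 17.1% of all genes. Without the week 1 library of uninduced shEIF2B4, 8 fell and 2 rose, at 21.1% of all genes called, and without week 1 altogether 4 fell and 2 rose, at 13.1%.

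**Figure D3:**
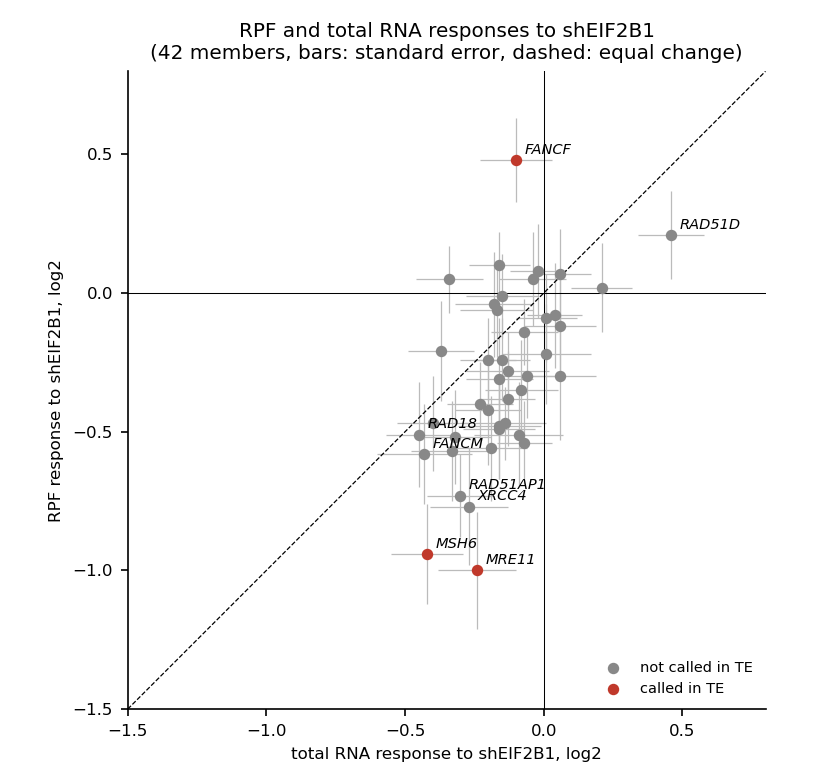
RPF response (y axis, log2) against total RNA response (x axis, log2) to shEIF2B1 for 42 members in both tables, with standard errors as bars and the dashed line at equal change. MRE11 and MSH6 (red, called in TE) lie far below the line, FANCF (red) lies above it, and RAD51D rose in total RNA.

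Repair genes already differed between the lines before induction. In RPFs, uninduced shEIF2B1 was higher than uninduced shCTRL in 26 of 45 members and lower in 4, against 54.1% of all genes called and 29% higher, with a median of 0.31. In total RNA limma called 0 of 46 members, at 1.4% of all genes. Of the 46, 34 lay above 0, with a median of 0.06, against 5923 of 11947 genes. At an unadjusted p under 0.05 there were 10 members and 13.1% of all genes. All 4 checkpoint kinases were higher, ATM by 0.59 (SE 0.14, limma adjusted p = 0.00235), CHEK1 by 0.48 (SE 0.08, limma adjusted p = 0.000141), ATR by 0.45 (SE 0.078, limma adjusted p = 0.0002) and CHEK2 by 0.23 (SE 0.1, limma adjusted p = 0.0743). NBN (0.74, adjusted p = 5.49e-05), MRE11 (0.71, adjusted p = 8.35e-05) and BRCA2 (0.65, adjusted p = 7.09e-05) were also higher. FANCF (-0.42, adjusted p = 0.00116), FANCG (-0.29, adjusted p = 0.00423), FANCA (-0.21, adjusted p = 0.0368) and XRCC3 (-0.21, adjusted p = 0.0806) were lower. With no term for the week none was called, and 5 had an unadjusted p under 0.05, as had 11.7% of all genes.

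Since a response subtracts the uninduced level, the induced libraries were also compared with each other, a comparison chosen after the uninduced difference was seen. Of 45 members 2 were lower in induced shEIF2B1 than in induced shCTRL, among them MSH6 by -0.49 (SE 0.12, limma adjusted p = 0.00707), and none was higher, at 10.5% of all genes called. MRE11 stood at -0.29 (SE 0.13, limma adjusted p = 0.203), RAD51AP1 at -0.31 (SE 0.11, limma adjusted p = 0.105) and XRCC4 at -0.25 (SE 0.14, limma adjusted p = 0.311). The median over the members was -0.08. ATM (0.12), CHEK1 (0.01) and NBN (0.23), called lower as responses, were not lower between induced lines. Nor was BRCA2, with induced means of 6.89 in shEIF2B1 and 6.81 in shCTRL. For MSH6 the uninduced difference of 0.45 and the induced difference of -0.49 make up the response of -0.94, and for CHEK1 0.48 and 0.01 make up -0.47. The 3 values of a gene share libraries and are set side by side only.

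**Figure D4:**
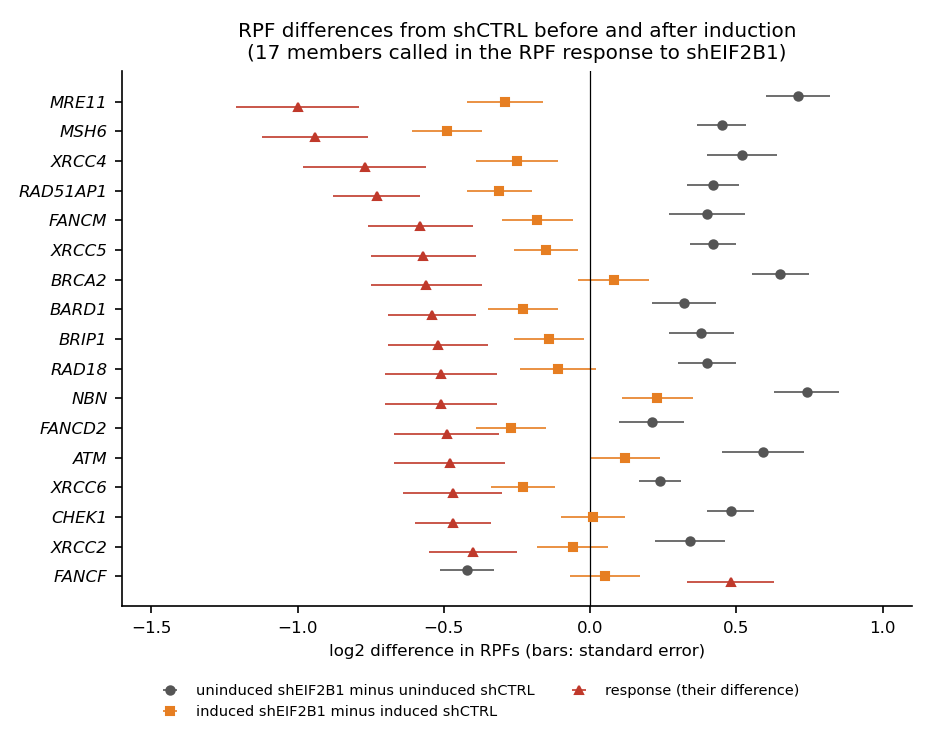
Log2 RPF difference from shCTRL (x axis) for 17 members called in the response to shEIF2B1, before induction (grey circles), after induction (orange squares) and as the response, their difference (red triangles), with standard errors. Apart from FANCF, the grey circles lie between 0.21 and 0.74, and the orange squares lie between -0.31 and 0.23 apart from MSH6, which lies lower.

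Uninduced shEIF2B4 differed from uninduced shCTRL in 1 of 45 members in RPFs, NBN, which was higher by 0.51 (SE 0.14, limma adjusted p = 0.0715), at 13.9% of all genes. Without its week 1 library 12 members were higher and 6 lower, while 13.1% of all genes were higher and 34.5% lower. Without week 2, 3 or 4 altogether no member was called, at 0.00897%, 1.56% and 0% of all genes. In total RNA 0 of 46 were called by limma, at 2.32% of all genes, with 5 at an unadjusted p under 0.05, as were 15.8% of all genes. The lower level of all shEIF2B4 columns enters this comparison and the next. Between induced libraries, 18 members were lower in shEIF2B4 than in shCTRL and none was higher, while 25.3% of all genes were lower. The median of all genes in that comparison was -0.13 and that of the members -0.20. The lowest adjusted p there were those of MSH6 (-0.52) and RAD54L (-0.54).

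Induction moved a few members in the control line too. In shCTRL, MRE11 rose by 0.35 (SE 0.11, limma adjusted p = 0.0807) in RPFs, and FANCF (-0.32, SE 0.1, limma adjusted p = 0.092) and FANCG (-0.34, SE 0.095, limma adjusted p = 0.0721) fell, 3 of 45 members at 9.85% of all genes. In total RNA RAD51AP1 changed by -0.28 (SE 0.074, limma adjusted p = 0.0943), 1 of 46 at 4.44% of all genes. Without week 1, 7 members fell and 2 rose in RPFs, while 15.1% of all genes fell and 16.6% rose. In total RNA 6 then fell, at 10.4% of all genes lower. Without week 2, 3 or 4 none was called in either, at 0.0359%, 0.0269% and 0.0359% of all genes in RPFs and 1.39%, 0.0251% and 0.1% in total RNA. The median member change was 0.14, -0.20, 0.01 and 0.05 over the weeks in RPFs, against 0.00, 0.00, 0.01 and 0.01 over all genes.

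The RPF changes of the members ran with the GC content of their coding sequences, lower in the MRE11 and MSH6 stretches above than in those of FANCF, XRCC3 and RAD9A. MSH6 fell by more than most members, though its coding GC of 44.9% was above their median of 43.9%. Of the 22 members with a coding GC under 45% 13 fell after shEIF2B1 and none rose, with a median response of -0.49. Of the 17 at or above 45% 1 fell (XRCC6) and 1 rose (FANCF), with a median of -0.04. All genes split in the same direction: under 45%, 41.5% of 2623 genes fell, and at or above it 6.77% of 8224. Across members the response and coding GC had Pearson r = 0.73 and Spearman rho = 0.77 over 39 genes, against Pearson r = 0.63 and Spearman rho = 0.68 over 10847 genes for the whole table, and with the share of G and A in the CDS the members had Pearson r = -0.67 and Spearman rho = -0.75 over 39. These are descriptions across genes of the same libraries, which are not independent replicates. The uninduced difference ran the opposite way: 20 of the 22 low-GC members were higher in uninduced shEIF2B1, as were 79.2% of low-GC genes, and for the members Pearson r = -0.88 and Spearman rho = -0.87 over 39.

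Whole libraries carried this trend. The mean GC slope of RPF libraries was 0.124 in uninduced shCTRL, -0.153 in uninduced shEIF2B1 and -0.0885 in uninduced shEIF2B4, and 0.0513, 0.0384 and 0.0276 in induced shCTRL, shEIF2B1 and shEIF2B4. These means depended on the weeks in them, since slopes ran by week in every RPF group. Without the week 1 library the mean of uninduced shEIF2B4 was -0.246, and without the week 4 library that of induced shCTRL was 0.138. Each of these leaves out a week that the other means keep, so they are not compared with them. With a smooth GC trend removed from each library, in the same fit with the week block, 3 of 39 members fell after shEIF2B1 and none rose, at 8.06% of genes called. Among them were MSH6, -0.73 (SE 0.17, limma adjusted p = 0.0184), and MRE11, -0.63 (SE 0.19, limma adjusted p = 0.0718). The median of the 39 moved to -0.09. In the uninduced comparison 5 members were then higher and 1 lower in shEIF2B1, against 8.8% and 5% of all genes.

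**Figure D5:**
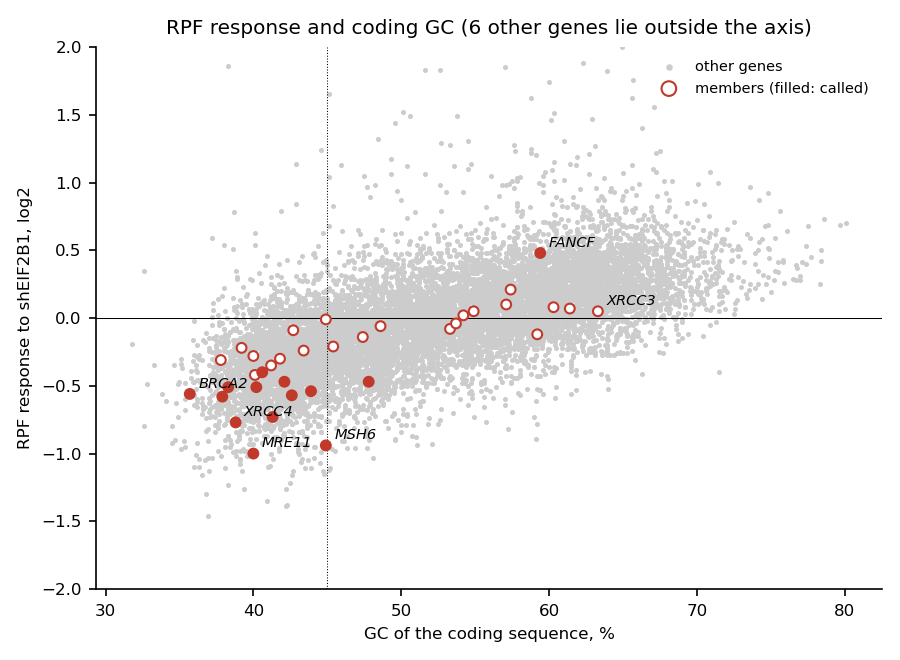
RPF response to shEIF2B1 (y axis, log2) against the GC content of the coding sequence (x axis, %) for 36 members with a matched CDS (red, filled where called) over all other genes (grey), with the dotted line at 45% GC and 6 grey genes outside the y axis not drawn. Called falls cluster at low GC, where the grey cloud is also below 0, and MSH6 and MRE11 lie at its lower edge.

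Repair genes outside the rule were read from a list of 105, of which 102 were in RPFs. After shEIF2B1 25 fell and 9 rose, while 27.3% of all genes were called and 15.3% fell. Their median response was -0.18 and their median coding GC 47.8%. The largest falls were CLSPN, which relays ATR signals to CHEK1, -1.05 (SE 0.21, limma adjusted p = 0.00368), the helicase BLM, -0.74 (SE 0.18, limma adjusted p = 0.0107), and SMC6, a subunit of the SMC5 and SMC6 complex, -0.71 (SE 0.17, limma adjusted p = 0.0074). The rises included the nuclease MUS81, 0.73 (SE 0.15, limma adjusted p = 0.0038), and FAAP20, a partner of the Fanconi core, 0.63 (SE 0.15, limma adjusted p = 0.00896). After shEIF2B4 2 fell and 1 rose, at 2.75% of all genes called. In total RNA 4 of 104 fell and 1 rose after shEIF2B1, at 3.47% of all genes. There 2 fell and 1 rose after shEIF2B4, at 5.4%. Among 21 proliferation genes 11 fell in RPFs after shEIF2B1, by the most TOP2A, -0.98 (SE 0.15, limma adjusted p = 0.000254), AURKA, -0.95 (SE 0.15, limma adjusted p = 0.000534), and CCNA2, -0.91 (SE 0.13, limma adjusted p = 0.000212), and 1 fell after shEIF2B4. In total RNA 6 and 2 of the 21 fell, with medians of -0.34 and -0.19, while in TE after shEIF2B1 their median was -0.05 against -0.18 for the repair members. Median coding GC differed too, at 47.5% in the proliferation genes and 43.9% in the members.

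The members did not share one profile over the 12 within-week RPF changes (3 lines by 4 weeks). Their correlation with the mean profile of the set, which they enter themselves, ran from -0.79 in FANCF to 0.95, with a median of 0.69. Outside the set the closest profiles were those of DCAF13 (r = 0.982), IPO7 (r = 0.977) and HSPA4L (r = 0.974), over 12 changes that share weeks and control libraries. Their RPF responses to shEIF2B1 were -0.61, -0.64 and -0.98.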

How the data were processed

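RPFs and total cytoplasmic RNA were sequenced from 24 lysates, 48 libraries in all. Per the study's methods, adaptors were removed and reads were deduplicated. Total RNA reads were aligned with Bowtie2 to GENCODE protein-coding transcripts and quantified with RSEM. RPF reads that matched rRNA, tRNA or mitochondrial RNA were removed. The rest were aligned to the most expressed transcript of each gene and counted on its CDS. The submitters' processing notes also name cutadapt 1.18, RSEM, SAMtools 1.9 and R 4.3.1. Libraries of replicate 3 were joined from 2 runs. The deposited values are regularized log2 values that the authors made with DESeq2. This transformation shrinks the differences of genes with few reads, so changes of low genes are understated, and it keeps no depth. No counts were used, so counting error could not be separated from replicate error and no count test was run. All columns used were mapped to a sample by name.

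limma 3.58.1 in R 4.3.3 was fitted to all genes of a table with a mean-variance trend and the replicate number as a block. The response was the product of shRNA and DOX over 16 libraries, the uninduced and shCTRL comparisons used 8, and the difference between the knockdowns used 24. Tests were two-sided, with Benjamini-Hochberg adjustment over all genes and a threshold of 0.1, in 14 comparisons, and the scripts were tested on simulated data. The study's methods give each replicate its own week and the labels number the replicates, which is where the pairing comes from. Deviations of same-numbered libraries from their group means had a mean correlation of 0.559 in RPFs, 0.183 in total RNA and 0.538 in TE, over 0.1 in 52, 37 and 55 of 60 pairs.

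The members, the lists and the tests were chosen with earlier results of these data known. Every library value is given for the 4 checkpoint kinases, for the 2 members of each role group with the smallest p in the RPF response to shEIF2B1, and for at most 8 members called in the RPF response to shEIF2B4 or in a total RNA or TE response. Some genes this rule names are not reported here by name, though counts and medians include them. From the other lists the 3 largest called rises and falls are named, and the 3 genes with the closest profile. CDS composition was read from GENCODE v29 on GRCh38, which matched 97.3% of the RPF genes. The annotation the authors used was a later release, so a CDS can differ from theirs. Alternatives left out the block, the trend, the lowest 25% of genes, the shCTRL correction, each replicate or a library that stood apart, or centred libraries on their median, fitted all 24 libraries, or removed a lowess trend on GC (span 0.5). Plots and summaries were made with pandas 2.3.3 and matplotlib 3.10.9.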

Additional observations from a re-analysis of the deposited data

Results flagged for a closer look

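In 21 of 252 groups of 4 libraries, over 21 members in RPFs and total RNA, 1 library lay far from the other 3. The measure is the gap to the nearest library over the range of the group, held against Dixon's 95% critical value for 4 libraries. Chance gives this in about 1 in 20 groups, and members of 1 library are not independent.

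The week 1 RPF library of uninduced shEIF2B4 gave 5 of them. BARD1 stood at 5.41, 6.07, 6.05 and 6.09 over weeks 1 to 4, a gap ratio of 0.944, and the ratio was 0.925 for XRCC5 and 0.854 for RAD51AP1, all low in week 1. FANCF (0.895) and RAD9A (0.88), both of high coding GC, were high in it. FANCD2 in the same group stood apart in week 3, at 5.72, 5.79, 6.18 and 5.74, with a ratio of 0.865.

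The week 4 RPF library of induced shCTRL was high for XRCC4 (0.845) and NBN (0.841). XRCC4 values there were 5.58, 5.57, 5.68 and 6.32.

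In total RNA the week 2 library of induced shEIF2B1 was low for RAD17 (0.919), ATR (0.895) and FANCM (0.839) and high for FANCG (0.83), with RAD17 at 8.83, 8.15, 8.87 and 8.89. FANCA in that group was low in week 3 (0.856). In uninduced shCTRL the week 3 total RNA library was high for RAD18 (0.988), at 7.39, 7.39, 7.75 and 7.39, and low for ATR (0.943), at 9.93, 9.92, 9.53 and 9.94, and RAD51D was low in week 1 (0.837). In induced shCTRL total RNA, RAD17 was low in week 1 (0.968), with the other 3 weeks at 8.76, RAD51AP1 was low in week 3 (0.876) and FANCA was low in week 2 (0.874). In induced shEIF2B4 total RNA, XRCC5 (0.895) and RAD9A (0.89) were high in week 4. The reasons were not tested.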

How the results depend on the processing

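Of 94 counts of called members under alternatives other than leaving out a week or library, 60 stayed within 1.5 times the reported count and 34 did not. With no replicate block, which drops the pairing by week, the counts fell to 0 for RPFs after shEIF2B1, 0 after shEIF2B4, 1 for total RNA and 0 for TE after shEIF2B1, 0 and 0 for shCTRL in RPFs and total RNA, and 0 and 0 for uninduced shEIF2B1 and shEIF2B4 in RPFs. The block changed no other count of members by over 1.5 times. With all 24 libraries the counts were 11 in RPFs and 0 in TE after shEIF2B1, and 5 for uninduced shEIF2B4 in RPFs. Without the shCTRL correction they were 29 and 12 in RPFs, 18 and 15 in total RNA and 8 and 2 in TE, after shEIF2B1 and shEIF2B4. With the GC trend removed they were 3 and 0 in RPFs after shEIF2B1 and shEIF2B4, 4 in total RNA and 0 in TE after shEIF2B1, 0 and 2 for shCTRL in RPFs and total RNA, and 6 and 0 for uninduced shEIF2B1 and shEIF2B4 in RPFs. Between induced lines, an alternative chosen after seeing the data, they were 2 and 18 in RPFs, 18 in total RNA of shEIF2B4 and 0 in TE of shEIF2B1. Without the lowest 25% of genes they were 0 in RPFs after shEIF2B4, 2 in total RNA of shCTRL and 0 for uninduced shEIF2B4 in RPFs. Without the trend in variance, total RNA of shCTRL had 0, and with centred libraries uninduced shEIF2B4 had 0 in RPFs. The share of all genes called moved between fits as well. For RPFs after shEIF2B1 it was 27.3% as reported, 8.06% with the GC trend removed and 10.5% between induced lines. A count of members here is thus not by itself a result about the members. The cause of each change was not tested.

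Leaving out 1 week, or 1 library that stood apart (chosen after seeing the data), gave 7 to 15 called members in RPFs after shEIF2B1, 0 to 13 after shEIF2B4, 0 to 3 and 0 to 3 in total RNA, 0 to 8 and 0 to 10 in TE, 0 to 9 and 0 to 6 for shCTRL in RPFs and total RNA, 23 to 28 and 0 to 19 for uninduced shEIF2B1 and shEIF2B4 in RPFs, and 0 to 3 for uninduced shEIF2B4 in total RNA. The differences between the knockdowns and uninduced shEIF2B1 in total RNA stayed at 0 throughout. Shares of all genes also moved in these fits, so the ranges are not by themselves results about the members.

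The members picked by the rule for giving every library value had 46 calls. Other called members, among them BRCA2, BRIP1, XRCC2 and XRCC6, are not in this count. For the 46 calls, 338 values under alternatives kept direction and call, 181 kept direction only, and 5 reversed. In RPFs after shEIF2B1, ATM (0.12), CHEK1 (0.01) and NBN (0.23) reversed between induced lines, and with the GC trend removed RAD17 (-0.15) and FANCM (-0.08) reversed for uninduced shEIF2B1 in RPFs. Depth is unknown, so what it limits could not be given.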

Other observations

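Total RNA of RAD51AP1, a recombination factor, was lower with DOX in all 3 lines, without overlap. It stood at 10.50, 10.69, 10.46 and 10.76 and 10.45, 10.39, 10.03 and 10.44 in shCTRL without and with DOX, at 10.79, 10.74, 10.61 and 10.80 and 10.31, 9.99, 9.94 and 10.40 in shEIF2B1, and at 10.49, 10.57, 10.52 and 10.70 and 10.12, 9.93, 10.11 and 10.09 in shEIF2B4. The change within the line was -0.57 (SE 0.097, limma adjusted p = 0.000897) in shEIF2B1 and -0.51 (SE 0.087, limma adjusted p = 0.000592) in shEIF2B4, and against shCTRL the responses were -0.30 (SE 0.12, limma adjusted p = 0.224) and -0.23 (SE 0.12, limma adjusted p = 0.317). FANCD2 total RNA was lower with DOX in every week of both knockdown lines, at 7.22, 6.85, 6.83 and 7.12 and 6.49, 6.72, 6.60 and 6.78 in shEIF2B4, a change of -0.36 (SE 0.098, limma adjusted p = 0.0146) within the line and a response of -0.29 (SE 0.13, limma adjusted p = 0.273). Both genes were picked after their values were seen.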
